A study of Mus musculus with 2 samples.

Results

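The genes described here are 8 that act in the selection of natural killer T (NKT) cells. They are the lipid-presenting molecules Cd1d1 and Cd1d2, the SLAM receptors Slamf6, Slamf1, Ly9 and Cd84, the adaptor SAP (Sh2d1a) and the transcription factor PLZF (Zbtb16). They were chosen by symbol and matched by Ensembl identifier, and all 8 were among the 43346 genes measured. The samples were thymus from mice of strain B6NCrl at postnatal day 0, with no treatment named, of which total RNA was sequenced. Replicate 1 and replicate 2 were each made from the paired lobes of a separate pup, the pups being littermates whose sex was not collected, and together they form 1 group of 2 libraries. The libraries held 39045711 and 41576378 expected counts. Expected counts are estimated numbers of reads per gene, and TPM is a relative abundance per transcript length. With 1 group no comparison between conditions exists, so each difference between the libraries is given as replicate 1 over replicate 2, with no p-value.

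NKT cells are T cells with a nearly invariant receptor that recognises lipids held by CD1d. In the mouse they are selected in the thymus by double-positive thymocytes, which display CD1d and are themselves the presenting cells. SLAM receptors on the selecting and the selected thymocyte bind each other, and their cytoplasmic switch motifs recruit SAP, which brings in the kinase Fyn. PLZF then directs the innate-like programme of the selected cells, which become numerous in the mouse thymus only after birth.

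The motif through which a SLAM receptor binds SAP is a threonine, any residue, a tyrosine, any 2 residues, and a valine or isoleucine. The coding sequence of each of the 4 receptors held 2 such motifs in the transcript from which they are shown. For Slamf6 that transcript was Slamf6-201, while Slamf6-204, which led by share of TPM, held 1 motif. The 18 coding bases of each motif are shown because the transcripts described below differ in how many motifs they keep. Capitals mark the tyrosine codon, and the sequences are those of GENCODE M21 on GRCm38, 5′ to 3′ on the gene's strand.
Slamf6 motif 1: actgtgTATgcacaagtc
Slamf6 motif 2: acaattTACtccatagtt
Slamf1 motif 1: actattTATgcccaagta
Slamf1 motif 2: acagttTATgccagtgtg
Ly9 motif 1: actccaTATgataaagtg
Ly9 motif 2: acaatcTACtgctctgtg
Cd84 motif 1: acagtaTATgctgtagtt
Cd84 motif 2: accattTATtcctcagtg

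The adaptor SAP and the receptor Slamf6 were the most abundant of the 8 in both pups. Cd1d1 and the other receptors followed, and Cd1d2 and PLZF were low. Of the 8 genes, 7 reached the detection threshold of 1 TPM in each library, against 32.2% of all genes measured. The exception was Zbtb16. The order of levels was the same in both libraries: Sh2d1a, Slamf6, Cd1d1, Cd84, Slamf1, Ly9, Cd1d2 and Zbtb16. Between neighbours in that order, only Cd1d1 and Cd84 lay closer to each other (1.83 TPM between the nearest libraries) than the larger SD of the pair (8.37 TPM). In a whole tissue, fewer cells of a type and less RNA per cell cannot be told apart.

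**Figure D1:**
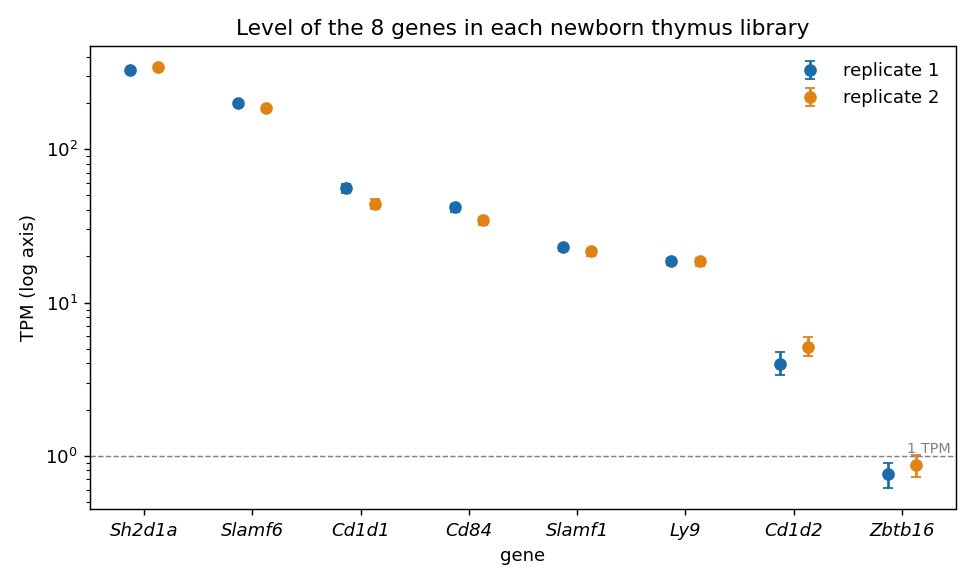
TPM (log axis) of the 8 genes in replicate 1 (left point) and replicate 2 (right point), with the intervals deposited by the authors as bars. Sh2d1a was highest at 330.25 and 343.49 TPM, and Zbtb16 was the only gene under the dashed line at 1 TPM in both libraries.

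The thymus itself was recognisable from its markers. All 9 markers of cortical double-positive thymocytes were detected, with a summed level of 2847 TPM in replicate 1 and 2854 TPM in replicate 2. All 6 markers of cortical epithelium were detected, with sums of 1873 TPM in replicate 1 and 2197 TPM in replicate 2. CD1d is also carried by B cells, macrophages and dendritic cells. Of the 7 B-cell markers only Cd79b was detected (31.73 and 32.89 TPM), while Ms4a1 (CD20) had 0.24 and 0.23 TPM and Pax5 had 0 and 3 counts. All 7 macrophage markers were detected, with sums of 298.8 and 316.4 TPM, as were 4 of 7 dendritic cell markers, with sums of 10.95 and 10.08 TPM. Of the 6 megakaryocyte and platelet markers 3 were detected. The part of these cell types in the values below was not tested.

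The ligand gene Cd1d1, which encodes the lipid-presenting chain that pairs with beta-2-microglobulin, stood at 55.81 TPM in replicate 1 and at 43.98 TPM in replicate 2 (2217 and 1989 expected counts). It lies on the minus strand at chr3:86995834-86999441 (ENSMUSG00000028076). After scaling of library sizes by the TMM method its counts were 1.17-fold higher in replicate 1, with a 95% counting interval of 1.10 to 1.24. Intervals of this kind cover counting error only and hold no spread between pups. They take reads as independent molecules, and reads are not, so even that error can be understated. The gene stood above 79.2% and 74.9% of the detected genes of its library.

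The difference between the pups did not lie evenly over the transcripts of Cd1d1. The coding transcript Cd1d1-201 had 23.58 and 21.03 TPM. Its deposited intervals (20.6 to 25.2 TPM in replicate 1 and 18.1 to 22.4 TPM in replicate 2) overlapped. Such intervals, here and below, are made within 1 library and hold no spread between pups. The share of all transcripts whose intervals do not overlap was not computed, so a lack of overlap does not set a transcript apart. Transcript Cd1d1-205, annotated as a retained intron, had 11.91 and 7.36 TPM, with intervals of 9.66 to 13.8 TPM and 5.70 to 8.90 TPM that did not overlap. Transcripts Cd1d1-203 (15.53 and 12.87 TPM) and Cd1d1-204 (3.27 and 2.10 TPM) carry the same annotation. The 3 retained-intron transcripts together held 55.0% and 50.8% of the TPM of the gene, and 39.4% and 36.6% of its expected counts. By TPM, about as much of the Cd1d1 level stood in transcripts annotated as noncoding as in coding ones, and by counts the coding ones held more.

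Cd1d2 is the neighbouring copy of Cd1d1, on the plus strand at chr3:86986551-86989780 (ENSMUSG00000041750), 6053 nt away, and is annotated as a polymorphic pseudogene. As background, the Cd1d2 copy of C57BL/6 mice is known to carry a frameshift. Its main transcript Cd1d2-203 matched the coding sequence of Cd1d1-201 in 975 of 1011 aligned bases (96.4%), with 32 mismatches, 1 base absent and 3 bases extra. The absent base corresponds to position 690 of the Cd1d1-201 coding sequence, counted from 1 at the start codon, and the reading frame of Cd1d2-203 met its first stop at codon 238. The stretch around that base is shown because it separates the copies in coding capacity, with capitals on bases that differ and on the base that Cd1d2 lacks. It lies at chr3:86997510-86997570 (minus strand) in Cd1d1 and at chr3:86988324-86988383 (plus strand) in Cd1d2.
Cd1d1 at the absent base: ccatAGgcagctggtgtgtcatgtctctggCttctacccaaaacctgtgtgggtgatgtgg
Cd1d2 at the absent base: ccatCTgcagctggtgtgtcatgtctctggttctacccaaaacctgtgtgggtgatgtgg

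Whether reads of these copies can be assigned depends on where they differ, and the differences were unevenly placed. The 60 coding bases with the most mismatches held 8 of the 32, which are in capitals, and are shown because reads from such a stretch separate the genes. They lie at chr3:86998226-86998285 (minus strand) and at chr3:86987608-86987667 (plus strand).
Cd1d1 most different stretch: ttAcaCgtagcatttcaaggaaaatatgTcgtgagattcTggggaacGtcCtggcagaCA
Cd1d2 most different stretch: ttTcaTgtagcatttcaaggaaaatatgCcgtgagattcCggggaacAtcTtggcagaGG
Of all windows of 100 nt in the transcripts, 269 were shared by the copies, which is 10.5% of those of Cd1d1 and 16.6% of those of Cd1d2. The window length was chosen here, so these are not shares of reads. Reads wholly inside such windows, with no mate outside them, can only have been divided by the authors' estimate. The deposited posterior SD of the counts was 6.20 in replicate 1 and 7.07 in replicate 2 for each copy. It was 0 for Slamf6, Slamf1, Ly9, Cd84 and Zbtb16.

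Cd1d2 stood at 3.98 TPM in replicate 1 and at 5.13 TPM in replicate 2 (164 and 228 expected counts). It was lower in replicate 1, at 0.75-fold (95% counting interval 0.61 to 0.92), the reverse of the direction of Cd1d1. Of the summed expected counts of both copies, Cd1d1 held 93.1% in replicate 1 (95% Wilson interval 92.0 to 94.1) and 89.7% in replicate 2 (88.4 to 90.9). The TPM of Cd1d1 was 14.0 and 8.57 times that of Cd1d2. Transcript Cd1d2-203 held 91.3% and 92.2% of the TPM of Cd1d2, Cd1d2-202 held 8.70% and 7.80%, and Cd1d2-201, annotated as protein coding, was listed at 0 in both libraries.

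The partners of CD1d on the presenting cell were all measured. Of 15 genes for lipid loading and the light chain, 15 were detected, with a median of 65.2 TPM against 15.0 TPM over all detected genes, and none of them differed over 2-fold between the libraries. B2m, the light chain, had 1471 and 1544 TPM. Ctsl, a lysosomal protease of the cortex that is required in mice for NKT cell selection, had 1663 and 1586 TPM. Mttp, a lipid transfer protein, was the lowest at 1.70 and 1.42 TPM. Mr1, the related molecule that presents vitamin B metabolites to MAIT cells, had 27.91 and 25.68 TPM, below Cd1d1 in each library.

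Slamf6 (Ly108) was the most abundant receptor of its family. It stood at 202.3 TPM in replicate 1 and at 186.2 TPM in replicate 2 (7833 and 7570 expected counts), a level above 94.2% and 93.6% of detected genes. In the mouse it is needed, together with Slamf1, for efficient selection of NKT cells. Its level was 8.77 and 8.63 times that of Slamf1, and 10.8 and 10.0 times that of Ly9. The counts were 1.08-fold higher in replicate 1 (95% counting interval 1.05 to 1.12).

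The 4 receptors stand in a cluster of 7 SLAM genes within 394 kb of chromosome 1. Slamf6 lies at chr1:171917515-171953170 (plus strand, ENSMUSG00000015314), Slamf1 at chr1:171767127-171801184 (plus strand, ENSMUSG00000015316), Ly9 at chr1:171588624-171607410 (minus strand, ENSMUSG00000004707) and Cd84 at chr1:171839697-171890718 (plus strand, ENSMUSG00000038147). Over the 9 SLAM family genes measured, the summed level was 377.5 and 365.5 TPM, of which Slamf6 made up 53.6% and 50.9%. Cd48, the ligand of CD244 and a membrane-anchored family member without a switch motif, was the next highest at 82.65 and 94.43 TPM. The other 4 relatives were low in both libraries: Slamf7 and Cd244a, receptors of natural killer cells, had 3.33 and 3.88 TPM and 2.66 and 3.44 TPM, while Slamf8 and Slamf9 had 1.55 and 1.62 TPM and 1.12 and 1.04 TPM. Neighbouring genes of the cluster thus differed widely in level, and none of the 7 differed over 2-fold between the pups. Of 14155 genes with a mean expected count of 50 or more, 1.36% did, a share at which 7 genes would hold few or none.

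**Figure D2:**
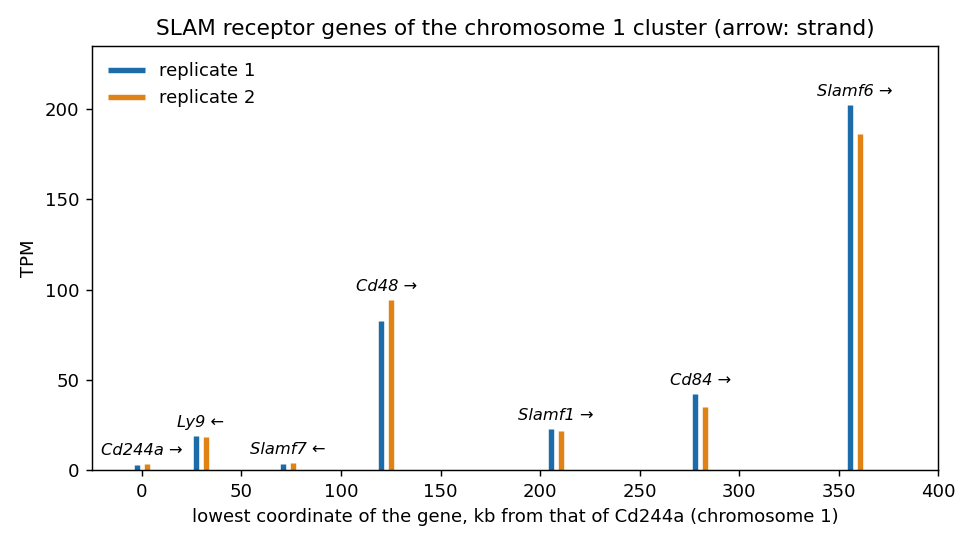
TPM of the 7 SLAM genes of the chromosome 1 cluster in replicate 1 (left bar) and replicate 2 (right bar), against the distance in kb of each gene's lowest coordinate from that of Cd244a. Slamf6, at the far end of the cluster, stood at 202.3 and 186.2 TPM, and Cd244a and Slamf7 were under 4 TPM in both libraries.

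Slamf6 was spread over more transcripts than the other receptors. In the mouse it is known to be spliced into proteins with different cytoplasmic tails. By share of TPM the leading transcript was Slamf6-204, with 40.4% in replicate 1 and 43.9% in replicate 2. It lacks an exon of 72 nt, at chr1:171941625-171941696, that carries the second switch motif. The exon is printed with that motif in capitals because its absence leaves Slamf6-204 with 1 motif.
Slamf6 exon absent from Slamf6-204: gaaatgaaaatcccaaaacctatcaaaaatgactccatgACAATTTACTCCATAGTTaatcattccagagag

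The levels of the 3 motif-bearing Slamf6 transcripts were close between the pups, while the short coding transcript Slamf6-203, without a motif, had 4.94 and 2.80 TPM. Slamf6-204 had 81.73 and 81.79 TPM, while the transcripts that keep both motifs, Slamf6-201 and Slamf6-207, had 36.57 and 32.50 TPM and 10.99 and 10.14 TPM. The noncoding transcripts also held a share: Slamf6-206, a processed transcript of 444 nt, had 40.82 and 44.77 TPM, and Slamf6-205, a retained intron, had 24.92 and 13.14 TPM. The deposited intervals of Slamf6-205 (22.6 to 26.3 TPM and 11.6 to 14.2 TPM) did not overlap.

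Which form of Slamf6 led depended on whether shares were taken per transcript length or per read. Of the TPM of the gene, transcripts with 2 motifs held 23.5% and 22.9%, the transcript with 1 motif held 40.4% and 43.9%, and those with none held 36.1% and 33.2%. Of the expected counts, transcripts with 2 motifs held 56.1% and 56.6%, and the transcript with 1 motif held 27.2% and 30.4%. Slamf6-204 is annotated with 984 nt, against 2485 nt for Slamf6-201 and 5729 nt for Slamf6-207. Among motif-bearing transcripts alone, the share with 2 motifs was 36.8% and 34.3% of TPM but 67.3% and 65.0% of counts.

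**Figure D3:**
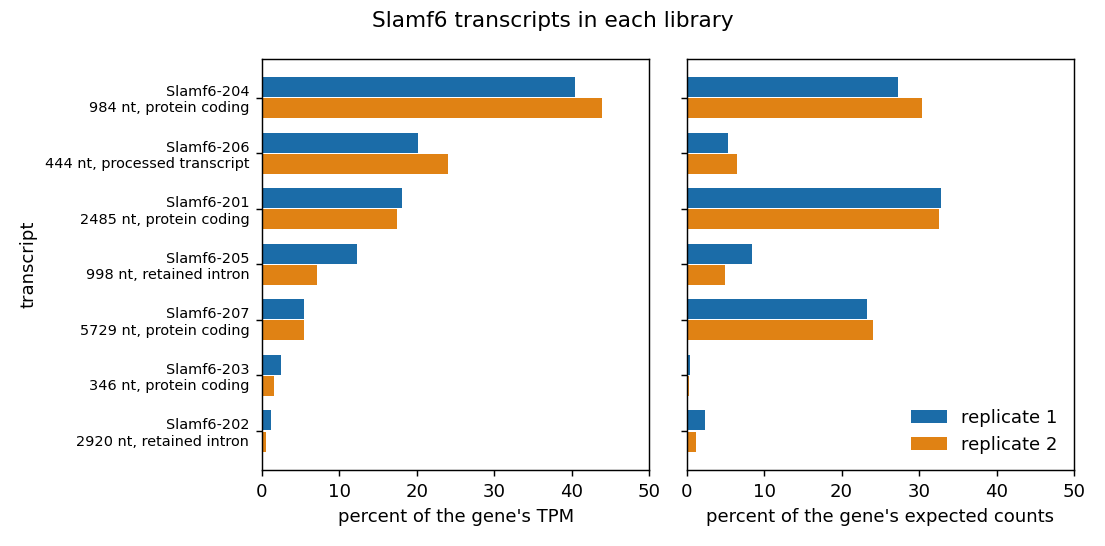
Share of each Slamf6 transcript in the TPM of the gene (left panel, percent) and in its expected counts (right panel, percent), with replicate 1 as the upper and replicate 2 as the lower bar. Slamf6-204 led by TPM with 40.4% and 43.9%, and Slamf6-201 led by counts with 32.8% and 32.6%.

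An antisense gene, Gm37065 (chr1:171909957-171919356, minus strand), overlaps the start of Slamf6 by 1842 nt without sharing exon bases. It stood at 88.41 TPM in replicate 1 and at 68.09 TPM in replicate 2, a level above that of Cd1d1. Whether reads were counted by strand is not given in the sources used here, so unspliced reads of the overlap cannot be given to either gene with certainty. The gene to the left of Slamf6, Gm10521, had 0.73 and 0.32 TPM, and that to the right, the planar polarity gene Vangl2, had 12.48 and 14.05 TPM.

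Cd84 was the second most abundant receptor of the 4, with 42.15 TPM in replicate 1 and 34.79 TPM in replicate 2 (2803 and 2596 expected counts). Its counts were 1.13-fold higher in replicate 1 (95% counting interval 1.07 to 1.19). The leading transcript did not share that difference, since Cd84-205 had 17.30 and 17.45 TPM. Cd84-203, whose annotated reading frame of 140 residues holds no switch motif, had 5.29 and 2.37 TPM, with deposited intervals of 4.73 to 5.70 TPM and 2.04 to 2.65 TPM. Cd84-201 had 9.85 and 5.98 TPM and Cd84-204 had 9.21 and 8.86 TPM, each with overlapping intervals. Transcripts with both motifs made up 86.3% and 92.8% of the TPM of Cd84.

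Slamf1 (CD150), which marks double-positive thymocytes and is its own ligand, stood at 23.06 TPM in replicate 1 and at 21.57 TPM in replicate 2 (1819 and 1807 expected counts). Its ratio was 1.05, with a 95% counting interval of 0.99 to 1.12 that included 1. Slamf1 had the simplest makeup of the 4 receptors, with Slamf1-201, which keeps both motifs, at 95.3% and 97.8% of TPM. The retained-intron transcript Slamf1-202 held the rest, at 1.08 and 0.48 TPM.

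Ly9 (CD229), a receptor that restrains innate-like T cells in the mouse, had nearly the same level in the pups, 18.76 TPM in replicate 1 and 18.57 TPM in replicate 2 (1296 and 1380 expected counts). The ratio of its scaled counts was 0.98 (95% counting interval 0.91 to 1.06). Ly9-202, with both motifs, held 73.6% and 79.2% of TPM and Ly9-201, also with both, held 7.29% and 10.9%. Ly9-204, annotated as a target of nonsense-mediated decay with no motif in its reading frame of 59 residues, held 16.7% and 8.33%, or 3.13 and 1.55 TPM with overlapping intervals. Cd244a overlaps Ly9 on the opposite strand without shared exon bases, and had 134 and 226 expected counts.

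Sh2d1a, the X-linked gene of the adaptor SAP, was the highest of the 8 genes. It lies at chrX:42502453-42529330 (plus strand, ENSMUSG00000005696) and stood at 330.3 TPM in replicate 1 and at 343.5 TPM in replicate 2 (7820 and 8718 expected counts), above 96.6% of detected genes in each library. The ratio was 0.94 (95% counting interval 0.91 to 0.97). Its level was 1.63 and 1.84 times that of Slamf6. The coding transcript Sh2d1a-201 held 92.0% and 93.4% of TPM, and each of its 6 other transcripts had a mean share under 5%. Tenm1, a gene on the opposite strand whose annotated exons overlap those of Sh2d1a by 1465 nt, had 0.38 and 0.27 TPM.

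The relatives of SAP were below the detection threshold, while the kinases downstream were detected. Sh2d1b1 (EAT-2) stood at 0.87 TPM in replicate 1 and at 0.54 TPM in replicate 2, and Sh2d1b2 (ERT), its copy, had 0.02 and 0.03 TPM. These adaptors are known from natural killer and antigen-presenting cells. Fyn, the kinase that SAP recruits, had 29.64 and 29.05 TPM, and Prkcq (protein kinase C theta) had 51.88 and 45.26 TPM. Of the 9 genes of the SAP family and SLAM signalling partners 7 were detected, with a median of 29.3 TPM. Among them, the phosphatase Ptpn6 (SHP-1), which binds switch motifs when SAP is absent, was the highest of them at 129 and 138 TPM.

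Zbtb16 (PLZF) was the lowest of the 8 genes. It lies at chr9:48654297-48836222 (minus strand, ENSMUSG00000066687) and stood at 0.76 TPM in replicate 1 and at 0.87 TPM in replicate 2, with deposited intervals of 0.61 to 0.89 TPM and 0.72 to 1.01 TPM. These levels rest on 112 and 139 expected counts over 1 transcript of 5100 nt, so the gene was sampled well above a count of 0. The ratio was 0.84, with a 95% counting interval of 0.65 to 1.09 that included 1. The TPM of Slamf6 was 266 and 214 times that of Zbtb16, and the TPM of Sh2d1a was 435 and 395 times.

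Among 11 other BTB zinc finger genes, 10 were detected and the median was 11.2 TPM. Only Zbtb32 was lower than Zbtb16, at 0.26 and 0.27 TPM. Patz1, a regulator of thymocyte development, was the highest at 76.09 and 73.32 TPM. Zbtb7b (ThPOK), the factor of CD4 lineage choice, averaged 3.58 ± 0.33 TPM (SD, n = 2). Of 22 factors with a known role in NKT cell development, before, beside or after PLZF, 22 were detected, with a median of 70.2 TPM. Egr2, which binds and induces Zbtb16 in the mouse, had 7.19 and 8.88 TPM, and Myb had 157.4 and 148.0 TPM.

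Effector genes of mature NKT cells were uneven. Of 19 genes on the list 14 were detected, with a median of 2.23 TPM. Low levels were seen for its 4 interleukin and interferon genes: Il4 had 1.00 and 1.20 TPM, Il13 1.04 and 0.85 TPM, Ifng 0.70 and 0.45 TPM, and Il17a 0.47 and 0.32 TPM, on 11 to 34 expected counts. The chemokine gene Xcl1 was higher, at 21.75 and 23.50 TPM, as were the receptor genes Il17rb (19.90 and 17.09 TPM), Icos (18.27 and 18.32 TPM) and Cxcr6 (14.59 and 14.44 TPM). Klrb1c (NK1.1) had 1.27 and 1.32 TPM and Klra1 was listed at 0 in both libraries. Gzma, a granzyme also made by other lymphocytes, was the highest at 274.7 and 316.2 TPM. All 8 genes on the list of cytokines and receptors of NKT cells were detected, with a median of 13.7 TPM.

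**Figure D4:**
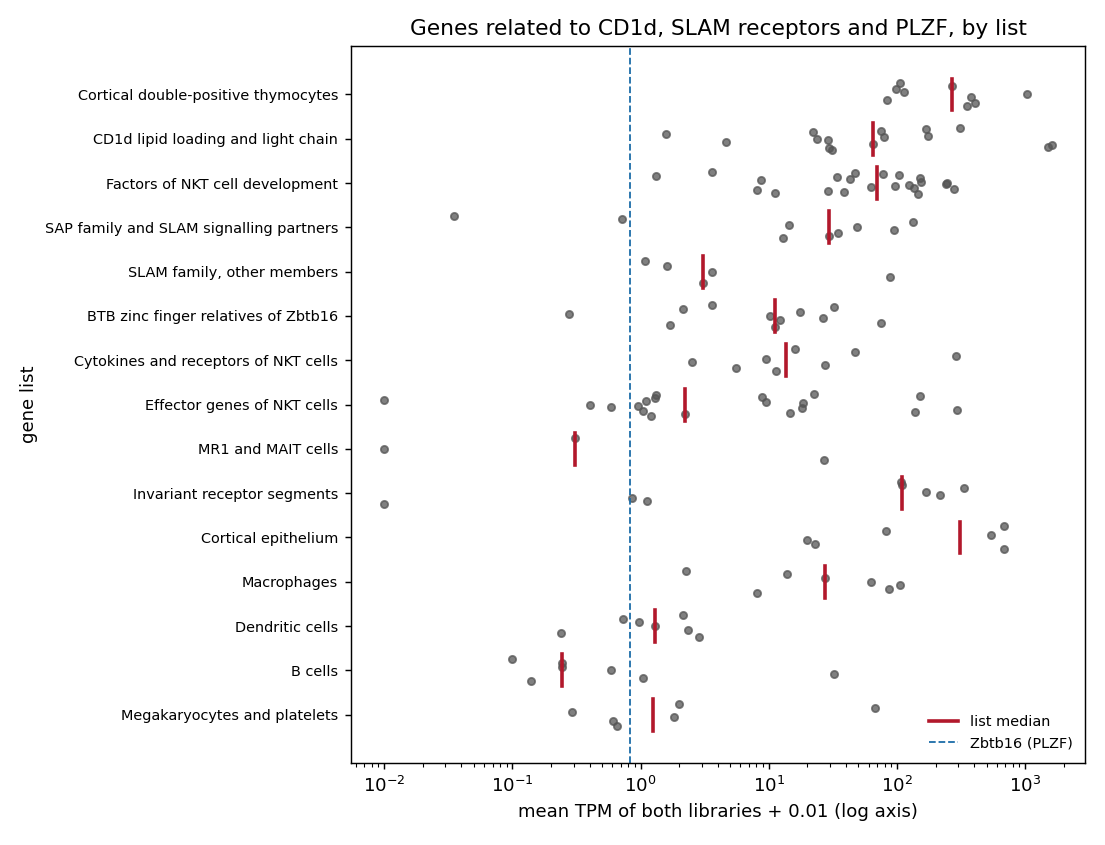
Mean TPM of both libraries plus 0.01 (log axis) for each gene of all 15 lists, with the list median as a red bar and the level of Zbtb16 as a dashed line. The lists of cortical epithelium and of double-positive thymocytes had the highest medians (311.1 and 270.8 TPM). The medians of 13 of the 15 lists lay to the right of Zbtb16, the exceptions being the B-cell list and the MR1 and MAIT cell list. The latter has 3 genes, and the 0 of its joining segment Traj33 (effective length 0) carries no information, so its median cannot be interpreted.

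The invariant receptor of NKT cells could not be read from these tables. Of 8 receptor segments taken singly 5 were detected, all of the beta chain. Trav11, the V segment of its alpha chain, had 16 counts in replicate 1 and 0 in replicate 2, and Trav11d had 0 and 14. The annotated sequences of the segments are identical over 342 bases, so only their sum, 16 and 14 counts, can be interpreted. The joining segment Traj18, of 66 nt, was listed at 0, as were all 59 Traj segments, each with an effective length of 0. Their zeros therefore carry no information on expression. The beta-chain segments that pair with it were abundant, Trbv13-2 at 302.2 and 361.8 TPM and Trbv29 at 109.2 and 105.9 TPM. As background, conventional T cells use these segments too. Of the 3 genes on the MR1 and MAIT cell list only Mr1 was detected, and Traj33 is among the joining segments that could not be.

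The differences between the pups in the 8 genes ran up to that of Cd1d2, at 0.75-fold, which was larger than that of 89.3% of genes with a mean expected count of 50 or more. None of the 8 passed a 2-fold difference where the mean expected count reached 50, as 1.36% of 14155 genes did, a share at which 8 genes would hold few or none. By scaled counts Cd1d1, Slamf6, Slamf1 and Cd84 were higher in replicate 1, and Cd1d2, Sh2d1a and Zbtb16 were higher in replicate 2. Ly9 had no steady direction, with a log2 ratio of -0.03 from scaled counts and 0.015 as a ratio of TPM. For 5 of the 8 (Cd1d1, Cd1d2, Slamf6, Cd84 and Sh2d1a) the counting interval left out 1, as it did for 49.9% of 14155 genes, and this interval holds no spread between pups. The median size of the log2 ratio was 0.14 over the 8 genes, against 0.13 over all genes at the minimum count, so these genes differed about as much as others. The biological coefficient of variation over 17258 genes was 11.7%. Over the lists, 1 of 112 genes at the minimum count passed 2-fold, the platelet gene Ppbp.

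Summed over each gene, the share of transcripts annotated as retained introns was higher in replicate 1 in all 5 members that have such transcripts. Single transcripts did not all follow, since Cd1d1-203 held 27.8% of the TPM of its gene in replicate 1 and 29.3% in replicate 2. By expected counts the summed share was 39.4% and 36.6% for Cd1d1, 10.9% and 6.19% for Slamf6, 7.57% and 3.66% for Slamf1, 0.99% and 0.63% for Ly9, and 0.43% and 0.23% for Sh2d1a. The same direction was seen over the whole tables, where the share of TPM was higher in replicate 1 in 3665 of 5021 genes (73.0%), with medians of 8.12% and 5.92%. All retained-intron transcripts together held 4.40% and 3.95% of TPM. The part of this library-wide shift in the ratios of Cd1d1 and Slamf6 was not tested.

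**Figure D5:**
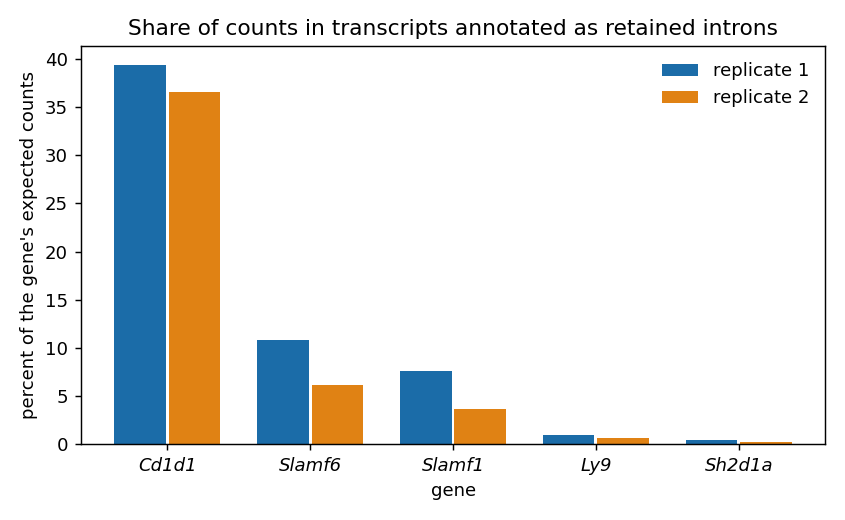
Percent of each gene's expected counts in transcripts annotated as retained introns, in replicate 1 (left bar) and replicate 2 (right bar), for the 5 genes that have such transcripts. Cd1d1 stood highest at 39.4% and 36.6%, and the left bar was the higher one in each gene.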

How the data were processed

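Total RNA of the thymus of 2 newborn littermates was sequenced, and per the labels' protocols 10 ng of RNA above 200 nt, with spike-ins, entered each library. The spread between the libraries therefore holds biological and technical parts together. The authors deposited, per library, a gene and a transcript table with expected counts (estimated counts, not normalized), TPM and FPKM (relative to length and depth), the percent of a gene's TPM in each transcript, and intervals and posterior SDs of their estimates. The tables rest on build mm10, per the labels, and on annotation M4, per the read-me files. No aligner, quantifier or strand setting is given in the sources used here.

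Symbols, transcript types, coordinates and sequences came from GENCODE M21 (GRCm38), which matched 42462 of 43346 genes by identifier. Of 35 transcripts of the 8 genes 34 had the same length in both annotations, while Zbtb16-201 had 5100 nt in the tables and 5114 nt in M21. Spike-ins and rows without a gene identifier were left out of totals. Detection was TPM of at least 1 in both libraries. Ratios are replicate 1 over replicate 2, from expected counts scaled by TMM (edgeR 4.0.16, R 4.3.3) with a prior count of 0.5, and over 2-fold counted at a mean count of at least 50. For edgeR, DESeq2 and the intervals the expected counts were first rounded. Counting intervals are exact 95% binomial intervals, and shares have Wilson intervals. Coding sequences were aligned with Biopython 1.88, and the ratio step was tested on simulated data. The text names all 8 genes, members of 15 lists, transcripts with a mean share of at least 5% and overlapping or neighbouring genes. Transcripts below 5% that are named (Cd1d2-201, Slamf1-202 and Slamf6-203) were added after their values were seen. The 8 genes and the lists were chosen with earlier results of these data known. Alternatives changed the detection threshold and unit, the scaling (DESeq2 1.42.0, library totals, TPM), the minimum count and the prior count, and used each library alone.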

Additional observations from a re-analysis of the deposited data

How the results depend on the processing

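None of the counts recomputed moved by over 1.5 times. The number of detected genes among the 8 was 8 at a threshold of 0.5 TPM, where Zbtb16 passed, and 7 at 2 TPM, at 1 FPKM and in each library alone. Over the lists it ranged from 98 (2 TPM) to 118 (0.5 TPM) of 136, against 111. None of the 8 passed 2-fold under any scaling, minimum count or prior count tried. Across 4 alternatives the log2 ratio kept its sign in 7 of the 8 genes. That of Ly9, -0.03 from scaled counts, turned positive as a ratio of TPM, and the ratio of TPM moved Cd1d1 to 0.34 and Cd84 to 0.28. The transcript shares depended most on the unit: Slamf6-204 averaged 42.2% of TPM but 28.8% of expected counts, where Slamf6-201 led. Cd1d1 held 89.7% to 93.1% of the pair with 1 library left out. No paired analysis was possible because there is 1 group.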

Other observations

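The cortical epithelium list was uneven between the pups, with a median log2 ratio (replicate 1 over replicate 2) of -0.36 over its 6 genes. Foxn1, the master factor of thymic epithelium, stood at 18.44 TPM in replicate 1 and at 27.35 TPM in replicate 2. Psmb11, the catalytic subunit of the thymoproteasome, had 67.72 and 97.05 TPM, and Tbata had 553.6 and 827.6 TPM. Prss16, a thymus-specific protease, was closer at 523.9 and 555.9 TPM. The chemokine gene Ccl25 (688.8 and 669.6 TPM) and Ly75 (20.15 and 19.58 TPM) had log2 ratios near 0, at -0.0050 and -0.0027. The double-positive thymocyte list had a median log2 ratio of -0.10, with 7 of 9 genes higher in replicate 2. Over all lists 72 of 112 genes at the minimum count were higher in replicate 2, so this count does not set the list apart. The median log2 ratio over all genes at that count was -0.018. Il18r1, a receptor chain for interleukin 18, was higher in replicate 1, at 3.23 and 1.82 TPM, on 233 and 144 expected counts.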
